A study of Mus musculus with 2 samples.

Results

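Macrophages that carried transcripts of Arg1 or Spp1 and little C1q were picked out by counts in 1 single-cell library of mouse liver, named RES, made after liver fibrosis had resolved. A barcode of that library was a member when it had at least 200 detected genes and at most 10% mitochondrial UMIs (molecular barcodes that tag single captured transcripts), at least 3 UMIs of Lyz2, at least 3 of Arg1 and Spp1 together, and at most 2 of C1qa, C1qb and C1qc together. It also had to show 0 UMIs of the NK cell genes Ncr1 and Klrb1c, 0 of the B cell gene Cd79a and at most 1 of the dendritic cell gene Cd209a. There were 317 members among 4157 RES barcodes that passed the 2 quality limits (7.63%, 6.84 to 8.47, exact Clopper-Pearson interval), and among 7603 such barcodes in the whole series. They made up 16.6% of the 1907 RES cells that met the limits on Lyz2 and on the NK, B and dendritic cell genes.

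The series held 2 libraries of CD45+ CD11b+ leukocytes sorted from livers of C57BL/6 mice, of which Ctrl came from uninjured animals and RES from animals whose fibrosis had resolved. Cells from 5 mice went into each library, and effects of the library and of the group cannot be told apart. The labels used here name neither the injury agent nor the time since it ended. A sort on CD11b leaves out cells low in that integrin, and the makeup of the samples rests on it.

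Macrophages that enter the liver in injury arise from circulating monocytes that carry Ly6c2 and the chemokine receptor Ccr2. As they mature they lose monocyte transcripts and may gain genes of lipid handling, matrix turnover and antigen presentation. Arginase 1, encoded by Arg1, splits arginine into ornithine and urea, and Spp1 encodes osteopontin, a secreted phosphoprotein that binds integrins and matrix. C1q starts the classical complement cascade, and its 3 chains are made together by many mature tissue macrophages.

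The comparator named by the selection was 423 RES classical monocytes, with at least 4 UMIs of Ly6c2, Chil3, F13a1 and Vcan together, 0 of Arg1 and Spp1, and the same other limits. The nearest cells were 336 RES macrophages that met every limit of the members but had at least 3 C1q UMIs, called here the high-C1q cells. A further 49 RES cells had at least 3 C1q UMIs and 0 of Arg1 and Spp1. Median depth was 11258 UMIs in members (1298 to 37417), 10319 in monocytes, 12643.5 in high-C1q cells and 9141 in C1q cells without Arg1 or Spp1. The background for stray RNA was 1333 RES NK cells, with a median of 4229 UMIs. Stray RNA and expression by the NK cells themselves were not told apart. Levels are given as CPM, which sums a gene's UMIs over the cells and scales the cells' total to 1000000. Every interval is at the 95% level and covers counting error only. Cells of 1 library are not replicates, so no p-value could be given, and since measured counts chose the cells, all differences between the chosen populations are descriptions.

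Before the results, 56 barcodes occurred in both libraries. Of these, 53 had under 1000 UMIs in Ctrl (504 to 972) and between 21907 and 44791 in RES, with a median Ctrl depth of 2.11% of the RES depth. The same limits applied to Ctrl gave 18 cells of 3446 (0.522%, 0.310 to 0.824), and 12 of them were such shared barcodes with 504 to 774 Ctrl UMIs. Without shared barcodes 6 Ctrl cells remained (0.177%), and RES kept 311 members (7.58%). Shared barcodes held 10.7% of the Arg1 UMIs and 10.9% of the Spp1 UMIs of all kept Ctrl cells, and 2.78% of the Fn1 UMIs. How these barcodes came to be shared was not tested. The 6 remaining Ctrl cells differed among themselves. The 2 with high counts had 87 and 157 Arg1 UMIs, 73 and 135 Fn1 UMIs and 8 and 4 AA467197 UMIs. Of the other 4, Arg1 stood at 13, 3, 0 and 0 UMIs and Spp1 at 0, 0, 7 and 3. Uninjured liver therefore gave too few such cells for levels of its own, and what follows is within RES except where Ctrl monocytes are named.

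**Figure D1:**
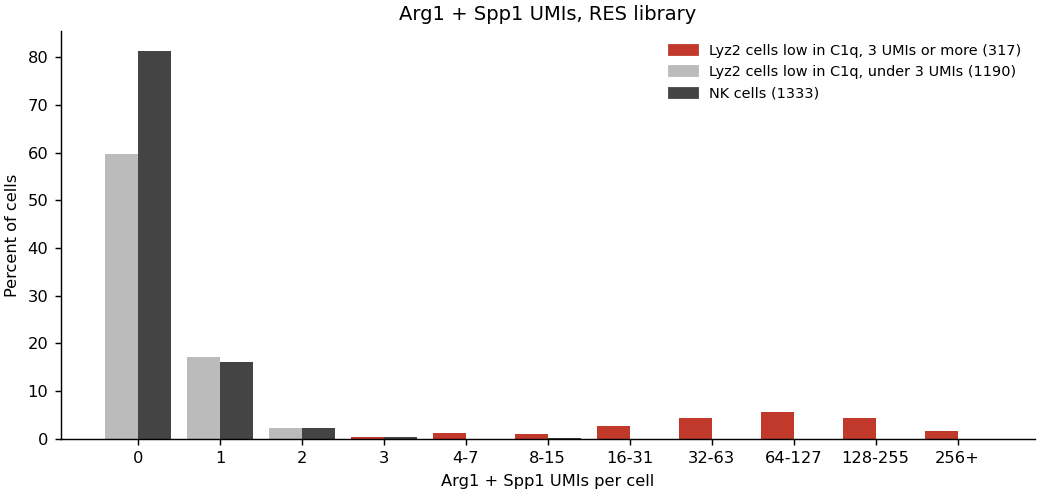
Percent of cells (vertical axis) by the sum of Arg1 and Spp1 UMIs per cell (horizontal axis) in RES cells with Lyz2 and at most 2 C1q UMIs, red from 3 UMIs up and grey below, and in NK cells, dark. The 899 cells at 0, 257 at 1 and 34 at 2 make the low peak, 7 cells sit at exactly 3, and most members lie far above it.

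The lower limit on Arg1 and Spp1 fell in a sparse stretch of the counts. Among RES cells with Lyz2 and little C1q, 899 had 0 UMIs of the pair, 257 had 1, 34 had 2 and 7 had exactly 3, whereas 298 of the 317 members had more than 5. In NK cells 18.6% had at least 1 UMI (16.5 to 20.8) and 5 of 1333 had at least 3, with up to 15 Spp1 UMIs in a cell. Whether NK cells made some of this RNA themselves was not tested. Cells just below the limit looked like cells at 0. The 34 cells at 2 UMIs had Fn1 at 837 CPM and Plac8 at 2619 CPM, against 958 and 3148 CPM in cells at 0. The 7 cells at exactly 3 had 2005.5 CPM of Fn1 and 2837 of Plac8, and the 298 members over 5 had 9778 and 419. In both genes the 7 cells at the limit stood nearer to the cells below it than to the bulk of the members. At the C1q limit Fn1 was close on both sides, at 12342.5 CPM in the 14 members with 2 C1q UMIs and 11990.8 CPM in the 15 cells with 3, just outside. Other genes differed between these small sets: Ly6c2 was at 95.2 against 9.72 CPM, Plac8 at 652 against 360 CPM and AA467197 at 1176 against 593 CPM.

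The 6 marker genes given for these cells were Arg1, Spp1, Fn1, Gda, AA467197 and Hilpda. Arg1 lies on chromosome 10 at 24915221 to 24927484, Spp1 on chromosome 5 at 104435118 to 104441050 and Fn1 on chromosome 1 at 71585520 to 71653200 (GRCm38, GENCODE M21 annotation). Gda lies on chromosome 19 at 21391307 to 21473445, AA467197 on chromosome 2 at 122636986 to 122641191 and Hilpda on chromosome 6 at 29272488 to 29275446. Arg1 had a median of 59 UMIs per member, from 0 to 411, and was seen in 307 of 317. Spp1 had a median of 1, from 0 to 1276, and was seen in 174. The high Spp1 level of the population, 2358 CPM against 6996 CPM for Arg1, came from a minority of members, and 1 member held 14.9% of its UMIs.

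Fn1, encoding the matrix glycoprotein fibronectin, was the most abundant of the 6. Its median was 95 UMIs per member (0 to 369) and 14 per monocyte (0 to 69), so the ranges overlapped. Its level was 9422 CPM in members and 1518 CPM in monocytes, a 6.21-fold difference (log2 ratio 2.63, 2.60 to 2.67). AA467197, the mouse counterpart of a small mitochondrial protein related to the complex IV subunit Ndufa4, was at 564 and 11.2 CPM (log2 ratio 5.66, 5.26 to 6.10). It was seen in 159 members, with up to 77 UMIs, and in 26 monocytes. Hilpda, a lipid droplet protein that restrains fat breakdown, was at 167 and 6.03 CPM (log2 ratio 4.79, 4.24 to 5.41). It was seen in 157 members, so about as many members had no UMI of it.

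Gda did not set these cells apart from monocytes by the 1.5-fold limit used here. Gda encodes guanine deaminase, which turns guanine into xanthine. Its median was 10 UMIs per member and 6 per monocyte, and its level 948 against 661 CPM (log2 ratio 0.52, 0.45 to 0.59). Against C1q cells without Arg1 or Spp1 its log2 ratio was 1.29. Of the 6 markers, all but Gda passed 1.5-fold over monocytes, and Arg1 and Spp1 did so by the selection itself.

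Shares of cells with a UMI were also taken after thinning each cell to 2000 UMIs, which left out 6 members and no monocyte. Arg1 was then seen in 91.6% of members and 3.94% of NK cells (96.8% and 10.1% unthinned), and Spp1 in 41.2% and 4.17% (54.9% and 9.45% unthinned). Fn1 was seen in 96.8% of thinned members (94.2 to 98.4), 83.0% of monocytes (79.1 to 86.4) and 13.04% of NK cells, against 98.7%, 97.2% and 24.1% unthinned. AA467197 was seen in 37.0% of members (31.6 to 42.6), 1.65% of monocytes and 0.758% of NK cells (50.2%, 6.15% and 2.10% unthinned). Hilpda was seen in 26.0% of members (21.3 to 31.3), while its monocyte share of 1.65% lay below the 1.97% of NK cells. Whether either of these 2 shares was stray RNA was not tested. Unthinned, those Hilpda shares were 49.5%, 5.67% and 4.95%.

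**Figure D2:**
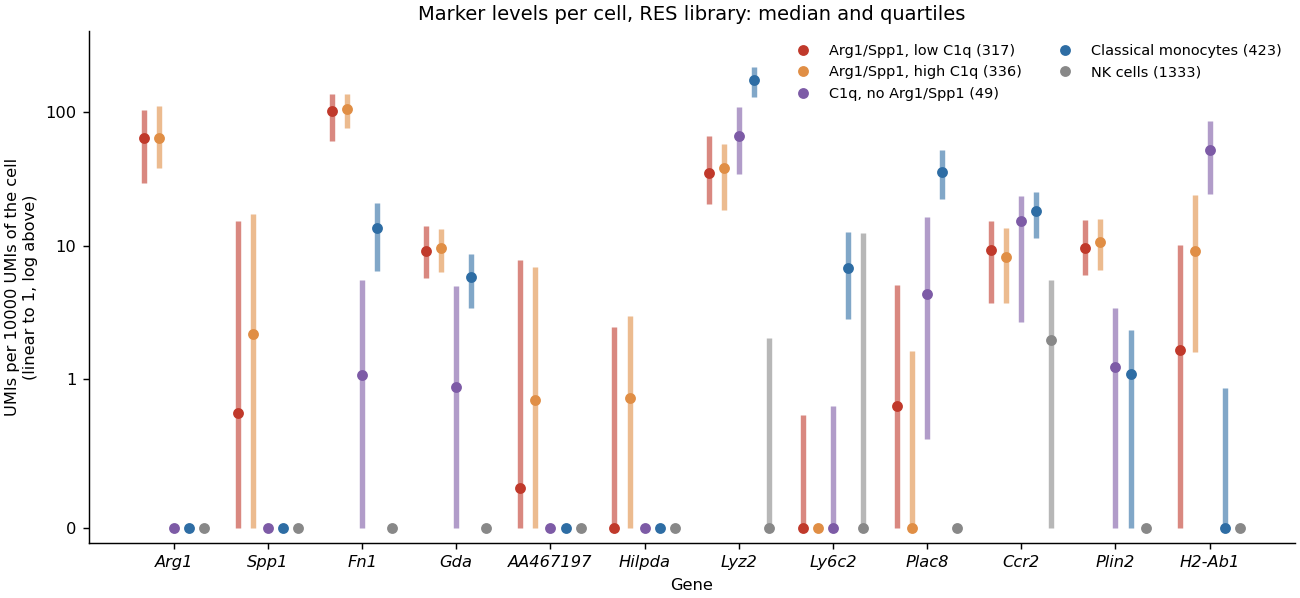
UMIs per 10000 UMIs of the cell (vertical axis, linear to 1 and logarithmic above) for 12 genes (horizontal axis) in 5 RES populations; points are medians over cells and bars run from the lower to the upper quartile. Members and high-C1q cells sit together for Arg1, Fn1, Gda and Plin2, while Lyz2, Ly6c2 and Plac8 are highest in classical monocytes.

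Measured over 6082 genes at 20 CPM or more in either population, 1118 were at least 1.5-fold higher in members than in monocytes (18.4%) and 995 lower (16.4%). The median log2 ratio of all these genes was 0.03. Without the shared barcodes, 6 of them members and 2 monocytes, the counts were 1139 and 1039. The 15 ranked highest were led by AA467197, given above, and by Cd36, the fatty acid and oxidised lipid receptor, at 522 against 14.96 CPM (log2 ratio 5.12). They included 4 genes of the cell edge and cytoskeleton: Rhoc, a small GTPase (6.98), Rai14, an actin-binding protein (5.33), Emp1, a membrane protein (5.43), and Basp1, a membrane-anchored signalling protein (4.73). Rai14 was spread widely, with a UMI in 272 members and 17 monocytes, and so was Tgm2, the protein crosslinking enzyme transglutaminase (3.92), in 262 members and 48 monocytes. Ltc4s, which makes leukotriene C4, had a log2 ratio of 6.27, Gatm, the first enzyme of creatine synthesis, 5.01, and Olr1, another receptor for oxidised lipoprotein, 4.98. Igf1, a growth factor, was at 163 against 3.13 CPM (log2 ratio 5.71), seen in 102 members and 8 monocytes.

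For 3 of the 15, single cells held a sizeable part of the sum. Retnla, a secreted resistin-like protein of alternative activation, had a log2 ratio of 7.84 (6.28 to 10.1) but was seen in only 17 of 317 members, 1 of which held 26.7% of its UMIs. The chemokine gene Pf4 had a log2 ratio of 5.23, and it was seen in 55 members, 1 of which held 19.8%. Pf4 is also a platelet gene, and of the 7 platelet markers 3 were seen in members, with Itga2b, Gp9, Gp1ba and Treml1 at 0. Ccl24, a chemokine for eosinophils, was at 463 against 14.5 CPM (log2 ratio 4.99) and was seen in 108 members, 1 of which held 12.6% of its UMIs.

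The genes ranked lowest included several of circulating monocytes. Plac8, a small cysteine-rich protein abundant in monocytes, had a median of 1 UMI per member (0 to 72) and 36 per monocyte (1 to 187), and was at 493 against 3842 CPM (log2 ratio -2.96). The Ms4a membrane protein genes Ms4a4c (-3.32), Ms4a6b (-3.29) and Ms4a6c (-2.17), the schlafen genes Slfn1 (-3.54) and Slfn5 (-3.21) and the nucleic acid sensing family genes Ifi209 (-3.29) and Mndal (-2.50) were all lower. So were Mmp8, a collagenase stored by neutrophils (-3.57), the redox enzyme genes Mgst1 (-2.80) and Gsr (-2.20), the transcription factor gene Cebpd (-2.32), the receptor gene Gpr141 (-2.48) and Gm9733 (-3.23). Lyz2, required at 3 UMIs in both populations, had a median of 40 UMIs in members and 173 in monocytes.

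**Figure D3:**
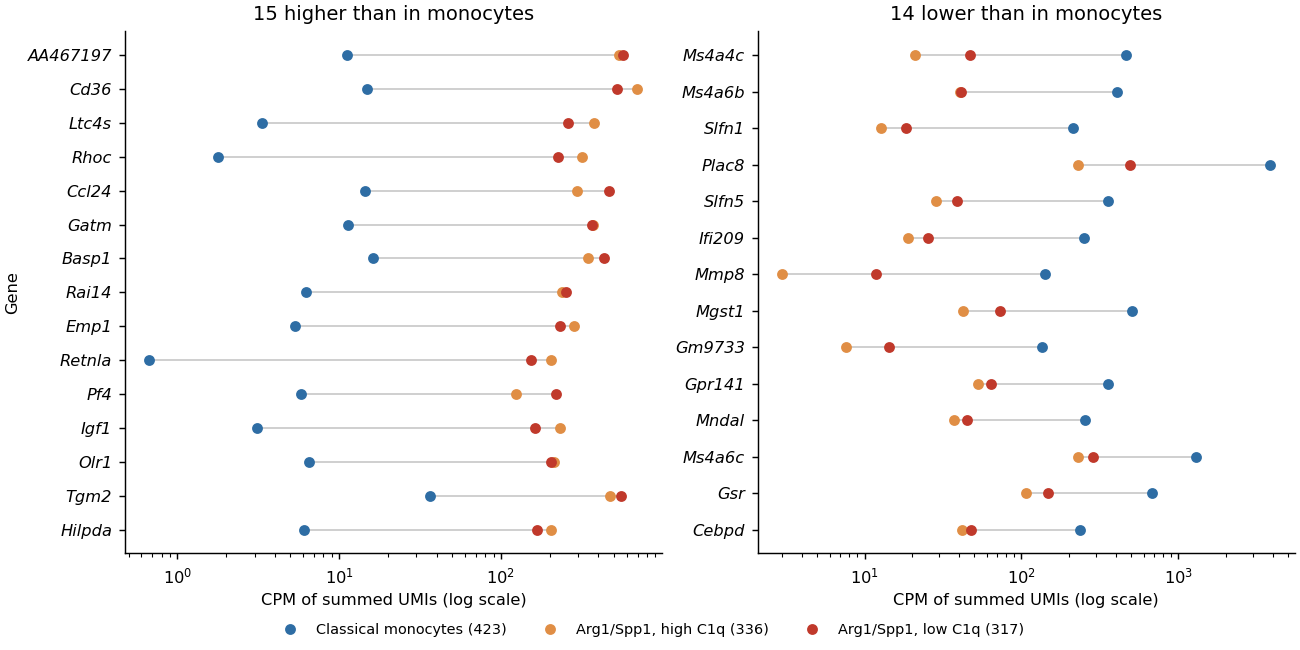
CPM of summed UMIs (horizontal axes, log scale) of the 15 genes ranked highest (left) and 14 of those ranked lowest (right) in members over classical monocytes, with the high-C1q cells beside them. For each gene shown the red and orange points lie nearer to each other than to the blue point of the monocytes.

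Genes of sugar breakdown were higher in members almost throughout. Of 17 measured genes of glycolysis and glucose uptake 15 were at least 1.5-fold higher than in monocytes and 0 lower (median log2 ratio 1.43.) Slc16a3, which exports lactate, was at 340 against 48.2 CPM (log2 ratio 2.82, 2.61 to 3.03). Tpi1, a glycolytic isomerase, was at 671 against 101 CPM (2.73), and Slc2a1, the main glucose transporter, at 127 against 19.4 CPM (2.71). The hexokinase genes, whose products take the first step, differed less: Hk2 had a log2 ratio of 0.58 and Hk3 of -0.41 (-0.92 to 0.09).

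Hypoxia-induced genes, which the oxygen-sensing factor HIF can drive, showed the like. Of 16 measured, 13 were higher and 1 lower (median 1.77.) Besides Hilpda they included Mif, a cytokine, at 1056 against 95.1 CPM (log2 ratio 3.47), and Vegfa, the endothelial growth factor, at 126 against 5.80 CPM (4.44). Egln3, an oxygen-sensing hydroxylase, was at 72.2 against 0.447 CPM (7.34, 5.47 to 10.4), with a UMI in 124 members and 2 monocytes. Bnip3l, a mitophagy receptor, had a log2 ratio of -0.05, and Ndrg1 was the 1 lower gene (-0.87). Across the 317 members the summed shares of the glycolysis and hypoxia lists had a Spearman correlation of 0.74. That of Arg1 with the hypoxia list was 0.42, and that of Arg1 with Spp1 was 0.09. These are descriptions over cells of 1 library that share their preparation. Because the sum of Arg1 and Spp1 chose the members, the correlations with Arg1 are also conditioned by that limit.

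The core of the HIF binding site reads ACGTG or GCGTG. Only ACGTG, which is CACGT on the other strand, was searched for. In the RefSeq promoter table (GRCm38.p6), the 250 bases before a start held it, on either strand, for 11 of the 17 hypoxia-list genes with an entry (64.7%) and for 4998 of all 27025 genes (18.5%). In the glycolysis list the count was 10 of 17 genes with an entry (58.8%), and 8 of 15 (53.3%) among its genes higher in members. Among the hypoxia genes higher in members it was 9 of 12 (75%). The windows of these genes that held ACGTG on either strand and overlapped no annotated exon numbered 4, and they are shown because their genes were higher in members. Capitals mark ACGTG on either strand, and where CACGTG stands both readings overlap. The form GCGTG is not marked. All are written 5′ to 3′ along the gene's strand: Egln3 at chr12:54203875-54204124 (minus), P4ha1 at chr10:59323046-59323295 (plus), Hif1a at chr12:73907617-73907866 (plus) and Mxi1 at chr19:53329163-53329412 (plus).
Egln3: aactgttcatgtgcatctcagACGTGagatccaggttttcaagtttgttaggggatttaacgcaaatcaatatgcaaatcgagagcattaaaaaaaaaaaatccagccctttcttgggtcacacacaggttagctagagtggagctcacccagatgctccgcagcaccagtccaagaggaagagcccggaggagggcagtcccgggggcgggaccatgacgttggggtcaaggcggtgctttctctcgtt
P4ha1: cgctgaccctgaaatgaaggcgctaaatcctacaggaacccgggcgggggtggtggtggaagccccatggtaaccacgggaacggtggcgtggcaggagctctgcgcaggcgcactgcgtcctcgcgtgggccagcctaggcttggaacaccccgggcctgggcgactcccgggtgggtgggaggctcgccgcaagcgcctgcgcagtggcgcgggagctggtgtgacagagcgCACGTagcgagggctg
Hif1a: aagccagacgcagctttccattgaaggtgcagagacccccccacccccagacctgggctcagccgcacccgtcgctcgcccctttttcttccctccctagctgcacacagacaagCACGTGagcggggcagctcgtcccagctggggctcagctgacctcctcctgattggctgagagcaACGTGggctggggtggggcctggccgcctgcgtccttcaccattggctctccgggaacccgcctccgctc
Mxi1: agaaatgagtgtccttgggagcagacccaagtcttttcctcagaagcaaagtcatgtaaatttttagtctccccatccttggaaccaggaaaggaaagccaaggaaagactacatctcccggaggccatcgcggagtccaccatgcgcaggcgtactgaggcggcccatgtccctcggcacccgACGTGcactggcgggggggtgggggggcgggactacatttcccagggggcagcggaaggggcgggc
P4ha1, a collagen prolyl hydroxylase, was at 205 against 49.8 CPM in members and monocytes (log2 ratio 2.04). Hif1a, encoding the HIF alpha subunit, was at 442 against 179 CPM (1.31), and Mxi1, a transcriptional repressor, at 61.8 against 29.2 CPM (1.08). A match of letters is a description of the window and says nothing of binding.

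Lipid and scar-associated genes were mixed but mostly higher. Of 17 measured genes of lipid droplets and fatty acid handling 9 were higher and 1 lower (median log2 ratio 0.80.) Plin2, the main coat protein of lipid droplets, had a median of 10 UMIs per member and 1 per monocyte. Lpl, the lipase that frees fatty acids from lipoproteins, was at 715 against 57.2 CPM (log2 ratio 3.65), while Acsl1, which activates fatty acids, was lower (-0.81). The scar-associated list holds genes reported for Trem2 macrophages of fibrotic liver. Leaving out Spp1, which the selection used, 9 of its 13 measured members were higher and 1 lower (median 1.37.) The lower gene was Tyrobp, an adaptor of Trem2 and other receptors (-0.65). Trem2, a lipid-sensing receptor, was at 205 against 111 CPM (log2 ratio 0.89). Cd63, a tetraspanin of lysosomes, was at 158 against 6.70 CPM (4.56). Fabp5, a fatty acid carrier, was level at 137 against 129 CPM, and Gpnmb, a glycoprotein often used to mark scar-associated macrophages, reached only 20.04 against 5.80 CPM.

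Products that act on matrix and on other cells were raised in part. Leaving out Spp1 and Vcan, 7 of 11 measured genes of secreted matrix and matricellular proteins were higher and 1 lower (median 0.82.) Besides Fn1 they included Thbs1, encoding thrombospondin, at 277 against 88.0 CPM (log2 ratio 1.65), and the lower gene was Serpinb2, a protease inhibitor (-1.94). Of 12 measured matrix proteases and inhibitors 9 were higher and 2 lower (median 1.22.) Timp1, which blocks matrix metalloproteinases, was at 105 against 1.12 CPM (6.55, 5.32 to 8.18), Mmp14, a membrane-bound metalloproteinase, at 64.5 against 4.91 CPM (3.72), and the lower genes were Mmp8 and the inhibitor gene Slpi (-1.08). Of 11 measured cytokines and growth factors 8 were higher and 1 lower. Pdgfa, a growth factor for mesenchymal cells, was at 41.7 against 1.34 CPM (4.96), Il18 was lower (-2.63), and Tgfb1, the central fibrogenic cytokine, stood at 419 against 302 CPM (0.47). Of 13 measured chemokines 10 were higher and 2 lower, among them Ccl9 at 1641 against 518 CPM (1.66) and Ccl3 at 29.1 against 56.9 CPM (-0.97).

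Enzymes of arginine use were higher in part. Leaving out Arg1, 9 of 16 measured genes were higher and 3 lower (median log2 ratio 0.64.) Slc7a2, an arginine importer, was at 79.1 against 1.34 CPM (5.88, 4.74 to 7.34) and was seen in 83 members and 6 monocytes. Gamt, which completes creatine synthesis, was lower (-1.79) although Gatm, the step before it, was higher. Nos2, the inducible nitric oxide synthase that competes for arginine, had 0 UMIs in the 317 members, which allows a share of cells with a UMI of up to 0.946%, a count of 3 over those cells. Of 11 measured genes of alternative activation other than Arg1 and Chil3, 9 were higher and 0 lower (median 2.63), led by Retnla, Igf1 and Ccl24, which were seen in 17, 102 and 108 members. Mrc1, the mannose receptor, was at 118 against 9.82 CPM (3.59), and Il4ra, the interleukin-4 receptor chain, was level (0.02).

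Monocyte and interferon genes were lower, and maturation genes higher. Leaving out the 5 genes used by the selections, 7 of 11 measured classical monocyte genes were lower and 2 higher, with a median log2 ratio of -1.34. The 2 higher were Thbs1 and the peroxidase gene Gpx1 (0.82). Ccr2 was lower, with a median of 9 UMIs per member and 19 per monocyte (log2 ratio -0.83). All 16 measured type I interferon-induced genes were lower, with a median of -1.62, from Isg15, a ubiquitin-like modifier (-3.03), to Bst2, which tethers virions (-1.15). Of 13 measured interferon gamma response genes 11 were lower and 1 higher (median -1.43.) The chemokine gene Cxcl10 had 2 UMIs in members and 296 in monocytes (-6.91, -9.96 to -5.05), and the higher gene was the checkpoint ligand gene Cd274 (2.34). Cd274 was seen in 66 members and 23 monocytes, and over Ctrl classical monocytes its log2 ratio was -0.13 (-0.49 to 0.24). Of 15 measured macrophage maturation genes 10 were higher and 0 lower. Axl, a receptor for the uptake of dying cells, was at 115 against 12.5 CPM (3.20), while Adgre1, encoding F4/80, was level (-0.03). Clec4f and Timd4, markers of resident Kupffer cells, were seen in 0 of 311 thinned members, which allows up to 0.965% as a count of 3 over those cells.

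Receptors and cell structure genes added to the picture. Of 10 measured receptors for chemoattractants 5 were higher and 1, Ccr2, lower. C3ar1, the receptor for complement fragment C3a, was at 231 against 11.8 CPM (log2 ratio 4.28, 3.88 to 4.71), and C5ar1, that for C5a, at 328 against 48.7 CPM (2.75). Of 14 inhibitory and scavenger receptors 10 were higher and 1 lower (median 0.86), with the lipopolysaccharide co-receptor gene Cd14 at 543 against 164 CPM (1.73) and Pirb, an inhibitory receptor, at 268 against 455 CPM (-0.76). Of 18 lamin, membrane and cytoskeleton genes 11 were higher and 2 lower (median 0.96). Lmna, encoding the nuclear lamins A and C, was at 181 against 13.6 CPM (3.73), while Anxa1, a phospholipid-binding protein, was lower (-0.96).

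Genes of the lysosome and of cell stress split. Of 19 lysosomal genes 9 were higher and 1 lower, although the median was 0.19. Lgmn, an endopeptidase, was at 552 against 102 CPM (log2 ratio 2.43), and Npc2, a cholesterol carrier, at 501 against 1096 CPM (-1.13). Of 10 heat-shock genes 6 were higher and 0 lower (median 0.82), and of 13 antioxidant, haem and iron genes 5 were higher and 1, Gsr, lower (median 0.34). Hmox1, which breaks down haem, was at 201 against 93.3 CPM (1.11). Of 6 genes of purine and nucleotide catabolism, the list that holds Gda, 0 were higher and 3 lower, among them Pnp, which frees guanine from its nucleoside (-1.27). Of 16 nonclassical monocyte genes 6 were higher and 2 lower (median 0.25). Among cell cycle genes only Pcna, a clamp of DNA replication, reached 20 CPM, at 58.5 against 44.7 CPM, and the C1q genes were held low by the limits.

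**Figure D4:**
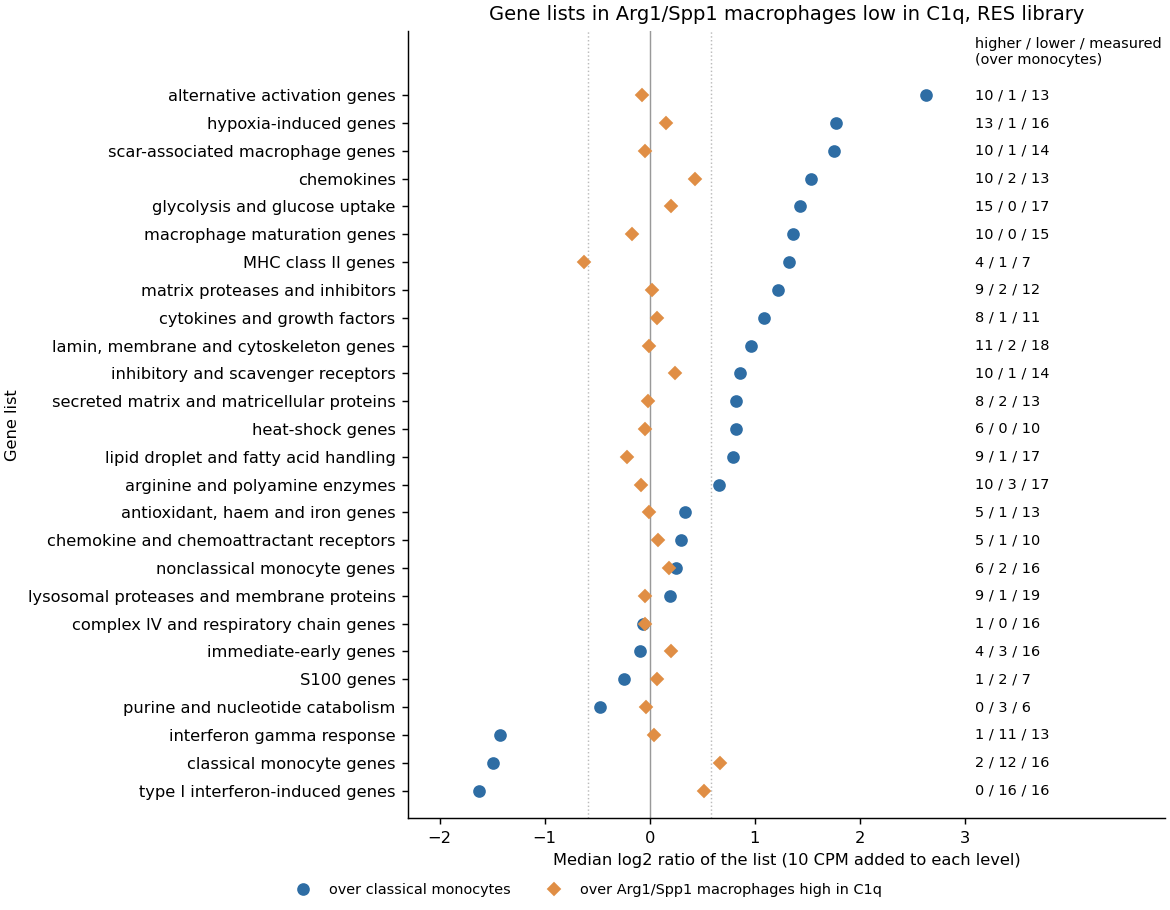
Median log2 ratio (horizontal axis, 10 CPM added to each level) of 26 gene lists (vertical axis) in members over classical monocytes (circles) and over high-C1q cells (diamonds), genes of the selection included; dotted lines mark 1.5-fold and the numbers count genes over monocytes. The circles span -1.62 to 2.63, and all diamonds but those of classical monocyte and MHC class II genes lie between the dotted lines.

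Genes for MHC class II, which present antigen to helper T cells, were uneven. Of 7 measured, 4 were higher than in RES monocytes and 1 lower (median 1.33.) H2-Ab1 had a median of 1 UMI per member (0 to 149) and 0 per monocyte (0 to 194), and was at 964 against 353 CPM (log2 ratio 1.45). This direction rested on the comparator. Over 432 Ctrl classical monocytes, chosen by the same limits and without shared barcodes, the median was 0.20, with 0 of 7 higher and 3 lower. In that comparison 19.4% of 6094 genes were higher and 16.3% lower. Leaving out genes of the selections, medians of classical monocyte (-0.36), lipid (0.54) and arginine (0.47) genes were also under 1.5-fold there. Those of glycolysis (1.85), hypoxia (1.70) and type I interferon-induced genes (-2.55) stayed past it. Other groups were near level over RES monocytes. Only AA467197 of 16 complex IV and respiratory chain genes passed 1.5-fold, the median of the list being -0.06. The immediate-early list had a median of -0.09 (4 higher and 3 lower of 16) and the S100 list one of -0.24 (1 and 2 of 7).

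Members and high-C1q cells differed in few genes. Of 5832 genes measured, 71 were at least 1.5-fold higher in members (1.22%) and 103 lower (1.77%), and all 6 markers lay within 1.5-fold. Without the shared barcodes, 21 of which were high-C1q cells, the counts were 105 and 110. In cells of 5000 to 15000 UMIs they were 145 and 192, and 119 were higher with every cell weighing the same. With the limits set on thinned counts 117 were higher. Arg1 was at 6996 and 7360.0 CPM in the 2 populations, Fn1 at 9422 and 10217 CPM, and Spp1 at 2358 and 1950 CPM. The 16 glycolysis genes and 16 hypoxia genes measured all lay within 1.5-fold, with medians of 0.20 and 0.15. Classical monocyte, chemokine, macrophage maturation and MHC class II genes held more of the differences than these. Leaving out the genes of the selections, 6 of 10 classical monocyte genes were higher in members and 0 lower (median 0.61.) The 8 genes ranked highest were Slpi, Plac8, Chil3, Vcan, Pf4, Thbs1, Ccl2 and Napsa. Pf4 was seen in 17.4% of members and 24.1% of high-C1q cells, and Thbs1 in 33.1% and 33.9%. The others were seen in a larger share of members. In members, 1 cell held 19.8% of the Pf4 UMIs and 1 held 19.6% of the Slpi UMIs. Slpi, a secreted protease inhibitor, was at 126 against 50.8 CPM (log2 ratio 1.31), Plac8 at 493 against 230 CPM (1.10), and Ccl2, which draws monocytes, at 228 against 133 CPM (0.77).

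Of 13 measured chemokines 4 were higher in members than in high-C1q cells (median 0.43), and 1, Ccl4, was lower, at 23.3 against 60.6 CPM (log2 ratio -1.38). Of 17 measured maturation genes 0 were higher and 4 lower (median -0.17), among them Mertk, a receptor for dying cells (-1.23), and Cd81, a tetraspanin (-1.02).

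Of 7 MHC class II genes, 5 were lower in members than in high-C1q cells and 0 higher (median -0.63.) The 8 genes ranked lowest held H2-Ab1, at 964 against 1561 CPM (-0.70), with H2-Aa, H2-Eb1 and H2-DMb1. The other 4 were Timp2, a metalloproteinase inhibitor (-1.16), Sdc3, a syndecan (-1.05), Abca1, the cholesterol exporter (-0.77), and the phosphatase gene Ptprs (-0.69). After thinning, H2-Ab1 was seen in 42.4% of members (36.9 to 48.1), 66.9% of high-C1q cells (61.5 to 71.9), 16.1% of monocytes and 7.13% of NK cells, against 64.04%, 87.5%, 34.8% and 14.2% unthinned. Plac8 was seen in 33.4% of thinned members, 18.2% of high-C1q cells, 97.4% of monocytes and 6.75% of NK cells (55.5%, 44.0%, 100% and 12.7% unthinned). On both genes members stood between monocytes and high-C1q cells.

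The 49 C1q cells without Arg1 or Spp1 differed from the members in many genes. Of 6243 genes, 1147 were higher in members (18.4%) and 1123 lower (18.0%). These cells held only 423906 UMIs, against 4702988 in high-C1q cells, so genes near 20 CPM rest on few UMIs. At 100 CPM or more, 351 were higher and 235 lower, against 16 and 14 over high-C1q cells. The 8 genes ranked highest were Ccl24, AA467197, Emp1, Ltc4s, Bnip3, Hilpda, Vegfa and Rai14, and the 8 lowest were Slc40a1, Id3, Ms4a7, Ms4a6b, Cd81, H2-Eb1, AW112010 and Tmem176b. Slc40a1, the iron exporter, was at 1.10 against 139 CPM (log2 ratio -6.99). All 16 measured hypoxia genes were higher in members (median 1.38), and all 7 MHC class II genes lower (-2.28).

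Members varied among themselves in Spp1. Arg1 without Spp1 was seen in 143 of them (45.1%), both in 164 (51.7%) and Spp1 without Arg1 in 10 (3.15%), whose median was 7 Spp1 UMIs. Such counts depend on depth, but median depth was close at 10943 and 11434 UMIs in the first 2 groups. A single Spp1 UMI placed a member with Arg1 in the group with both, whose median was 12.5 Spp1 UMIs. In NK cells 9.45% had a Spp1 UMI, and the part of stray RNA in the split was not tested. Members with both had Ccl24 at 599 CPM against 251 CPM in those with Arg1 alone (log2 ratio 1.26), Cd63 at 208 against 93.4 CPM (1.15) and Cd9, another tetraspanin, at 455 against 265 CPM (0.78). Over 5842 genes, 206 were higher and 140 lower in members with both. Of 7 MHC class II genes 0 were higher and 5 lower in them (median -0.66), with H2-Ab1 at 712 against 1243 CPM (-0.80) and H2-DMb1 at 69.5 against 148 CPM (-1.09). Retnla was at 98.7 against 230 CPM (-1.22), but 1 cell held 40.8% of its UMIs among members with Arg1 alone, and without that cell its ratio was -0.48. Fn1, at 10216 against 8867 CPM, and Hilpda, at 179 against 161 CPM, lay within 1.5-fold.

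Members also varied in the monocyte genes Ly6c2, Chil3, F13a1 and Vcan. Of the 317, 209 (65.9%) had at least 4 UMIs of the 4 together, the level asked of classical monocytes, and 108 had fewer. The former were deeper, with a median of 11746 against 9408.5 UMIs. Fn1 was the same in both, at 9415 and 9439 CPM, and so was Gda, at 952 and 939 CPM. All 7 MHC class II genes were lower in the 209, with a median log2 ratio of -1.53. H2-Eb1 was at 334 against 1570 CPM (-2.23, -2.35 to -2.11), and Cd74, the invariant chain, at 2105 against 6086 CPM (-1.53). After thinning, H2-Ab1 was seen in 34.3% of the 207 deep enough (27.9 to 41.2) and in 58.7% of 104 of the others (48.6 to 68.2), against 59.8% and 72.2% unthinned.

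Spp1 was at 1936 CPM in the 209 and 3378 CPM in the 108 (log2 ratio -0.80), but 1 cell held 1276 of the 3600 Spp1 UMIs of the latter. Without it the level there was 2208 CPM and the ratio -0.19 (-0.26 to -0.12), under 1.5-fold. After thinning, Spp1 was seen in 42.5% of the 209 and 38.5% of the 108, against 57.4% and 50% unthinned. Lipid genes were lower in the 209 as well, 7 of 17 against 0 higher. The 209 were higher in Thbs1, at 346 against 109 CPM (1.67), in Pf4 (1.88), in Slpi (1.90) and in Ccl24 (1.21). The chemokine gene Ccl7 was at 16.7 against 181 CPM, but 1 member held 166 of the 193 UMIs of the lower-sum group. Over 5879 genes, 282 were higher and 329 lower in the 209.

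**Figure D5:**
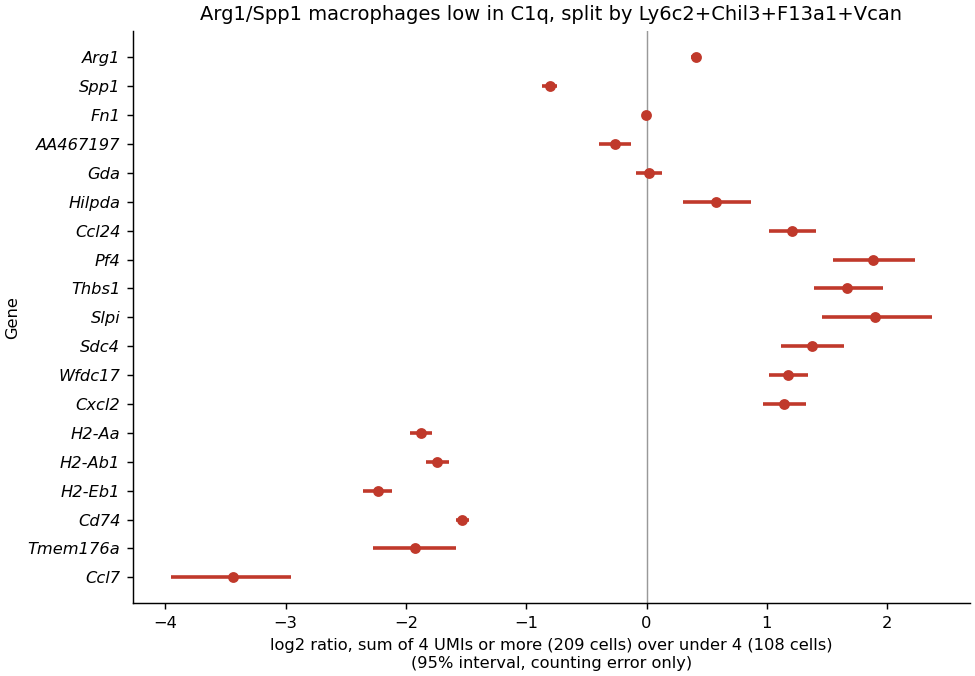
Log2 ratio (horizontal axis) of 19 genes (vertical axis) in the 209 members with at least 4 UMIs of Ly6c2, Chil3, F13a1 and Vcan over the 108 with fewer; bars are 95% intervals of counting error. Fn1 and Gda lie within 0.02 of 0, H2-Aa, H2-Ab1, H2-Eb1 and Cd74 lie between -2.23 and -1.53, and Ccl7 rests on 1 cell.

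Summed markers of other cells were higher in members than in monocytes for some cell types and lower for others. A single member held 8093 of the members' 8153 haemoglobin UMIs, with 112 Arg1 UMIs and 17494 UMIs in all, and no other member had more than 2. Without it Hbb-bs was at 11 CPM in place of 1012. The 11 hepatocyte markers summed to 248 CPM in members and 244 in monocytes, all of them seen, with Alb in 49 members at up to 8 UMIs. The 13 neutrophil markers summed to 69.5 and 317 CPM, with S100a9, Ly6g, Camp, Ngp and Ltf at 0 in members, and the collagen genes Col1a1, Col1a2 and Col3a1 were at 0. The 12 NK markers, 10 of them seen, summed to 126 and 92.4 CPM. The 10 Kupffer cell markers, 7 of them seen, summed to 75.2 and 17.6 CPM, with Clec4f, Timd4 and Marco at 0. Platelet markers summed to 223 and 16.7 CPM, of which 218 and 5.80 were Pf4. Those of conventional type 1 dendritic cells summed to 248 and 423 CPM, and those of plasmacytoid dendritic cells to 140 and 246 CPM. Endothelial markers summed to 389 and 241 CPM, of which 366 and 233 were Fcgr2b, an Fc receptor that macrophages share. The part of these transcripts in the differences above was not tested.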

How the data were processed

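The authors deposited raw UMI counts per gene and barcode for 2 libraries, without normalization. Counting was by Cell Ranger 3.1.0, per the file headers. Besides it, bcl2fastq and mm10 stand in the submitters' processing notes. The annotation used for counting is not given in the sources used here. RES held 34119806 UMIs in 4278 barcodes and Ctrl 20379164 in 3691.

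The members, comparators and gene lists were chosen with earlier results of these data known. Raw UMIs were summed over the cells of a population. A ratio carries an exact conditional binomial interval and a share an exact Clopper-Pearson interval, checked on simulated counts. UMIs are single molecules, so both cover counting error but no spread among animals. The interval of a ratio, taken on summed UMIs, also leaves out spread among cells. A gene counted as higher or lower at 1.5-fold, where 20 CPM was reached in either population. Named genes were the 15 highest and 15 lowest over monocytes and the 8 highest and 8 lowest over each C1q population, at 100 CPM or more, ranked with 10 CPM added. Mitochondrial, ribosomal protein and haemoglobin genes, Xist, Y-linked genes and the genes of the selection compared were left out of the ranking. Genes named from the 28 lists were in part among the 2 highest and 2 lowest of their list. Others were named after their values were seen, and some lists had no gene named. Medians of lists use the ratios with 10 CPM added, and no median was given for cell cycle and C1q genes, with under 3 measured over monocytes. Doublets were kept, and removed by Scrublet (scanpy 1.11.5) as an alternative. Other alternatives changed the CPM minimum, weighting, total, limits, depth and pseudocount. Gene positions are from GENCODE M21. Some genes that the rule names are not reported here.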

Additional observations from a re-analysis of the deposited data

How the results depend on the processing

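Between populations, no list's median that passed 1.5-fold changed sign under the settings run. Nor did the ratio of any ranked gene, taken against the population it was ranked over, or of Fn1, Gda, AA467197 or Hilpda over monocytes. Ratios of other named genes between populations were not carried through the settings. Among these, over Ctrl monocytes the log2 ratio was -0.13 for Cd274 and 0.03 for Slpi, against 2.34 and -1.08 over RES monocytes. Between members with both genes and with Arg1 alone, the log2 ratio of Ccl7 was 2.21, and it was -0.34 without the 1 cell that held most of its UMIs, a choice made after seeing the data. Counts of genes at 1.5-fold moved mainly with the minimum level. With 100 CPM they were 361 higher and 309 lower over monocytes, 16 and 14 over high-C1q cells, and 351 and 235 over C1q cells without Arg1 or Spp1. With no minimum they were 3683 and 3421, 2071 and 2123, and 1948 and 5806. Over high-C1q cells, 145 were higher and 192 lower in cells of 5000 to 15000 UMIs, 119 higher with every cell weighing the same and 117 higher with the limits set on thinned counts. The share of RES barcodes was 6.33% with a C1q sum of 0 and 11.1% on counts thinned to 4000 UMIs, which kept deeper cells only, where the Ctrl share was 0.303%. With shared barcodes left out, a choice made after seeing the data, the Ctrl share was 0.177%. Over 15 settings the median over monocytes ran from 1.36 to 1.85 for glycolysis, 1.39 to 2.52 for hypoxia, 0.43 to 2.57 for lipid genes and 0.20 to 1.61 for MHC class II. No paired analysis was possible because each group is 1 library and the labels carry no replicate numbers. Retnla, seen in 17 members, rests on few cells.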
